A study of Mus musculus with 4 samples.

Results

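The part described here is 400 cell barcodes of the mouse gingiva, of 7134 that passed the cell filters and of 8295 deposited. They were chosen as basal keratinocytes with RNA of several genes of the Hist1h histone cluster. Of these 400, 76 also held much gland, contractile or haemoglobin RNA, as given below, so the name is less certain for them. A barcode was a member when it had at least 200 detected genes, at most 20% mitochondrial UMIs and under 10000 UMIs in all, and when it met 3 limits on keratins. These limits were at least 5 UMIs of Krt5 and Krt14 together, under 10 of Krt4 and Krt13, and under 5 of Krt1, Krt10 and Krt76. It also had at least 3 detected symbols starting with Hist1h and fewer than 3 of the 8 mitotic genes Ube2c, Cdc20, Hmmr, Nusap1, Cenpf, Cenpa, Ccnb2 and Aurka. The members were therefore chosen on their own expression values, and the values of Hist1h, keratin and mitotic genes named in this rule are given as a description only.

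Gingiva was taken from mice and digested with collagenase and DNase, and the strained cells were made into 10x Genomics single-cell libraries from polyA RNA. There were 4 groups with 1 library each: healthy gingiva, metformin treatment, disease, and disease treated with metformin. The labels used here state neither strain, age and sex nor the number of animals behind a library, the metformin dose or the way in which disease was produced. Members numbered 58 in the healthy, 184 in the metformin, 99 in the disease and 59 in the disease plus metformin library. Values of the 4 libraries are given in that order throughout. With 1 library per group, no test between groups was possible, and intervals on levels and shares cover counting error only.

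During S phase a cell copies its DNA and must make enough histone protein to package the copy. Most of this supply comes from replication-dependent histone genes, which lie in clusters, lack introns, switch on at the start of S phase and switch off when copying ends. Their mRNAs usually end in a stem-loop bound by the stem-loop binding protein and carry no poly(A) tail, in contrast to the replacement histones that are made throughout the cell cycle. In gingival epithelium, division takes place in the basal layer, which is marked by Krt5 and Krt14.

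The sequences that set these genes apart are shown first, because library preparation was on polyA RNA. All 54 Hist1h symbols lay on chromosome 13 (GRCm38), within chr13:21715763-23934851. The search was for a stem of 6 bases, a loop of 4 and the matching 6 bases. The stem had to start with GG and go on with C or T only, and the loop had to start with TT. Among the 41 genes with at least 20 annotated bases after the stop codon in GENCODE, 35 held such a sequence after it. Of 55396 other genes, 30 (0.0542%) held such a sequence anywhere. Of the 35 gene models, 18 ended within 60 bases after the stem-loop, and 13 went on for over 300 bases. Sites of the genes with the most UMIs follow, with the stem in capitals and 5 bases or fewer on each side.
Hist1h2ae: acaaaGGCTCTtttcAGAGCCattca
Hist1h3c: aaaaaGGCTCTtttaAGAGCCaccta
Hist1h2ap: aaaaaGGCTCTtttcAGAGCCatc
Hist1h4d: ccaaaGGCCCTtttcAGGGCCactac
Hist1h1e: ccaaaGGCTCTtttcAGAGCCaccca
The commonest of the 5 distinct stem-loops, shared by Hist1h2ae, Hist1h2ap and Hist1h1e, stood in 20 genes. The Hist1h1b model has fewer than 20 bases after its stop codon, so no site could be looked for, and Hist1h2bc had none in its 742 annotated bases after the stop.

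The 150 bases before the start of 50 Hist1h genes (RefSeq, GRCm38.p6) were searched on both strands for CCAAT and for TATAA, the core of the TATA box. CCAAT stood in 42 of them (84%), against 24.5% of 32851 promoters in the RefSeq table. TATAA stood in 50% against 14.2%, and both in 40% against 3.57%. A match is a description of letters and not of binding. The promoters of 3 genes with many UMIs are printed with both of these motifs, on either strand, in capitals. In the linker histone genes Hist1h1b and Hist1h1e the H1 box AAACACA is also in capitals; it stood in 7 of the 50 (14%), against 3.53% of all promoters. All 3 genes lie on the minus strand, and the sequences run 5′ to 3′.
Hist1h1b, chr13:21780626-21780775: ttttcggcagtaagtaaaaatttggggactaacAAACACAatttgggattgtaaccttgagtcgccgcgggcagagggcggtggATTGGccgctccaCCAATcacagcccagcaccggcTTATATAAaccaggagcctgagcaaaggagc
Hist1h1e, chr13:23622559-23622708: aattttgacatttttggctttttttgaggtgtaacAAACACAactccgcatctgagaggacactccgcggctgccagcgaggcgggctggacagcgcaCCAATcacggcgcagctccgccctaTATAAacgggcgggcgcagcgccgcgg
Hist1h2ae, chr13:23571221-23571370: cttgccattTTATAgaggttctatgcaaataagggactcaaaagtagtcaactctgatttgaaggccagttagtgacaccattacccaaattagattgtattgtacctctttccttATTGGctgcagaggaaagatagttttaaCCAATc

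The 4 libraries held 12507787 to 22333858 UMIs in all. The members had a median of 1086.5, 1622, 1263 and 1516 UMIs, with a range of 514 to 9933, and a median of 539.5 genes over all 400. No mitochondrial UMI was found in 58.6%, 39.1%, 28.3% and 61.0% of them. Both a mitochondrial and a Malat1 UMI were found in 6.90%, 48.4%, 25.3% and 18.6%, so the libraries differed in this sign of RNA content before any comparison. Doublets were not called or removed. Across libraries, 8 barcode sequences occurred more than once, 1 of them in a member, and no 2 members shared one.

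Members were checked against markers of other cells. Leukocyte markers summed to 1 UMI over all members, with 9 of 10 genes, Ptprc among them, at 0. Melanocyte markers summed to 1 UMI and muscle markers to 2. Endothelial markers summed to 24 UMIs, 19 of them in the disease library. Fibroblast markers summed to 906 UMIs, of which Col1a1 gave 3 and Dcn, a matrix proteoglycan, nearly all: 1213, 1141, 864 and 1001 CPM, against 675, 884, 860 and 752 in the non-cycling barcodes defined below. Decorin RNA was thus found in both groups of cells, and in members it came with few Col1a1 UMIs. Its source was not tested.

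Part of the members carried much RNA of gland, contractile or haemoglobin genes. Whether it came from the cell itself, from a doublet or from free RNA was not tested. Over 5% of UMIs came from 14 gland genes in 66 members, 59 of them in the metformin library, at least 5 UMIs came from 6 contractile genes in 8 members, and at least 100 UMIs were haemoglobin in 2. Together these were 76 members, or 19.0%. The summed gland level was 4020, 71185, 1807 and 13931 CPM, and without the 76 barcodes it was 3853, 3585, 2122 and 4034. The summed haemoglobin level was 149, 414, 20768 and 63061 CPM, and 162, 507, 337 and 39.4 CPM without them. All 8 contractile members had exactly 3 Hist1h symbols, 55 of the 66 gland members had 3 or 4, and 11 of the 76 had 5 or more. Most of these barcodes thus lay at the lower limit of the rule, and results are given with and without the 76 where they differ. Such barcodes made up 22.3% of the non-cycling and 3.26% of the mitotic barcodes defined below.

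**Figure D1:**
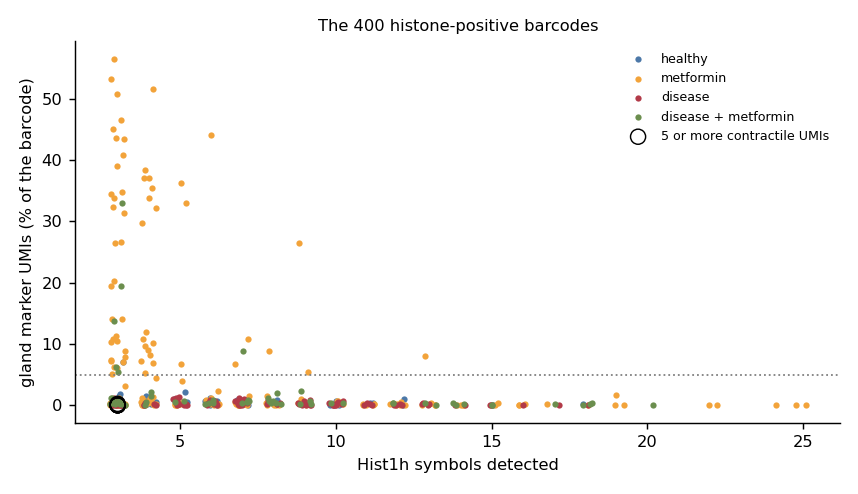
Percent of UMIs from 14 gland genes in each of the 400 members (vertical axis) against the number of Hist1h symbols detected in it (horizontal axis), by library. The dotted line marks 5% and rings mark members with at least 5 contractile UMIs. The points above the line are mostly of the metformin library and at 3 or 4 Hist1h symbols.

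The members held 5319 Hist1h UMIs from 48 of 54 genes. The summed level was 5797, 5494, 7749 and 7744 CPM. In non-cycling barcodes, which passed the same filters and keratin limits with fewer than 3 Hist1h symbols and fewer than 3 of the mitotic genes (2345 barcodes), it was 241, 293, 251 and 218 CPM. In mitotic barcodes, with the same limits and at least 3 of the mitotic genes (429 barcodes), it was 3715, 5393, 5336 and 3856 CPM. The mitotic group was not selected for histone RNA, and its level was far above that of the non-cycling group in every library. The non-cycling group was held low by its limit of fewer than 3 Hist1h symbols, so this gap was partly made by the rule. Of the barcodes inside the keratin limits, 209 had at least 3 Hist1h symbols and at least 3 mitotic genes and counted as mitotic.

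Linker histones of the H1 family, which bind the DNA that enters and leaves the nucleosome, gave 38.3% of the members' Hist1h UMIs. The core families gave less each, with 23% from H2A, 18.3% from H4, 12.1% from H3 and 8.35% from H2B. By library the H1 share was 44.4%, 38.7%, 36.2% and 36.7%. UMIs were not divided by gene length, so these are shares of captured molecules. Reads that fit several near-identical Hist1h copies may have been dropped or split in counting, so single genes are less certain than family sums.

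Hist1h1b, which encodes linker histone H1.5 (ENSMUSG00000058773, chr13:21779883-21780625, minus strand), was found in 73.8% of members and gave 21.7% of their Hist1h UMIs. Its level was 1585, 1204, 1622 and 1477 CPM in members and 36.7, 34.2, 8.72 and 9.87 CPM in non-cycling barcodes. The members of every library lay above every non-cycling value, by the rule's construction. In mitotic barcodes it was 927, 1103, 1045 and 869 CPM.

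Hist1h2ae, an H2A gene at chr13:23570517-23571220 (minus strand), was found in 56.3% of members. Its level was 404, 582, 864 and 977 CPM in members and 6.99, 21.1, 6.78 and 5.48 CPM in non-cycling barcodes. The 2 disease libraries were the higher ones. Hist1h3c, an H3 gene at chr13:23744973-23745602 (minus strand), was found in 39.3% of members at 213, 270, 556 and 540 CPM, against 0, 8.55, 1.94 and 6.58 CPM in non-cycling barcodes. Here too both disease libraries lay above both others.

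Hist1h2ap, an H2A gene at chr13:21833026-21833507 (minus strand), was found in 33% of members at 202, 216, 163 and 421 CPM. For this gene the disease plus metformin library was the highest and the other 3 were close together. Hist1h4d, which encodes H4, was found in 70% of members at 766, 604, 1206 and 1080 CPM, and the H1 gene Hist1h1e in 58.5% at 542, 502, 673 and 651 CPM.

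Hist1h2bc, an H2B gene whose annotated model (chr13:23684199-23692908, plus strand) carries no stem-loop, stood apart from the cluster. It was found in 10.3% of members at 31.9, 84.1, 89.8 and 31.8 CPM, against 52.4, 38.8, 63.0 and 69.1 CPM in non-cycling barcodes. The ranges of the 2 groups overlapped. Of 23 Hist1h genes with enough UMIs for the fit described below, the other 22 were higher in members without overlap, as the rule made them, and the median log2 difference of all 23 was 5.29. Hist1h2bc gave 20.4% of all Hist1h UMIs in non-cycling barcodes and 1.13% in members. Other models also lacked the stem-loop without sharing this pattern. Over all libraries, Hist1h1a, Hist1h4a, Hist1h2br and Hist1h3g stood at 122, 37.0, 22.7 and 9.54 CPM in members. In non-cycling barcodes they stood at 1.87, 2.34, 0.47 and 0 CPM. Without Hist1h2bc and Hist1h1c, 366 of 400 members still reached 3 symbols.

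**Figure D2:**
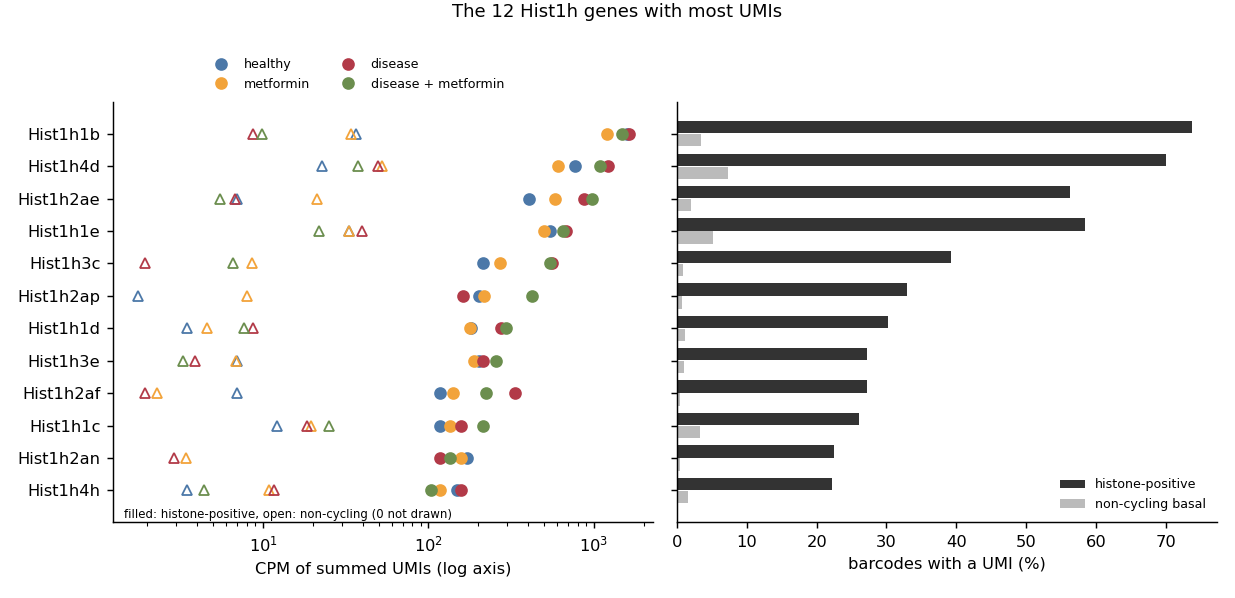
The 12 Hist1h genes with most UMIs in members. On the left, levels in CPM of summed UMIs (log axis) are filled circles for members and open triangles for non-cycling barcodes, 1 per library, with levels of 0 not drawn. On the right, bars give the percent of barcodes with a UMI. Hist1h1b lies between 1204 and 1622 CPM in members and at or below 36.7 CPM in non-cycling barcodes.

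The number of Hist1h symbols per member had a median of 5, 5, 7 and 7 and a highest value of 25. There were 99 members at 3 symbols, 55 at 4, 150 at 5 to 9 and 96 at 10 or more. At the edge of the rule, the 99 members with 3 symbols had 1351 Hist1h CPM and a median of 1596 UMIs, and the 205 otherwise equal barcodes just outside, with 2 symbols, had 806 CPM and a median of 1921 UMIs. Of the mitotic genes, 147 members had none, 145 had 1 and 108 had 2.

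Genes of DNA copying that the rule did not use stood at higher levels in barcodes with many Hist1h symbols. The licensing and helicase list of 20 genes, which holds the Mcm helicase and its loaders, stood at 114 CPM with 0 symbols, 164 with 2, 227 with 3, 214 with 4, 406 with 5 to 9 and 607 with 10 or more. Without the barcodes rich in gland, contractile or haemoglobin RNA, the level at 3 symbols was 422 CPM, and that at 2 was 167. The nucleotide supply list stood at 478 CPM at 0, 504 at 2, 612 at 3, 992 at 4, 1478 at 5 to 9 and 1797 at 10 or more. Over all libraries, the step from 2 to 3 symbols, where the rule begins, was small for both lists with all barcodes and larger without the rich ones (587 to 1032 CPM for nucleotide supply). It differed between libraries: in the metformin library licensing was at 176 CPM with 2 symbols and 138 with 3, and nucleotide supply at 551 and 497. Without the rich barcodes, nucleotide supply there was at 648 and 679 CPM, and in the disease plus metformin library, with 9 barcodes at 3 symbols, it was at 814 and 1781 CPM and licensing at 132 and 890. Median depth differed between the strata, with 980.5 UMIs at 0 symbols, 1921 at 2, 1062.5 at 5 to 9 and 2106.5 at 10 or more. Its part in these levels was not tested.

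**Figure D3:**
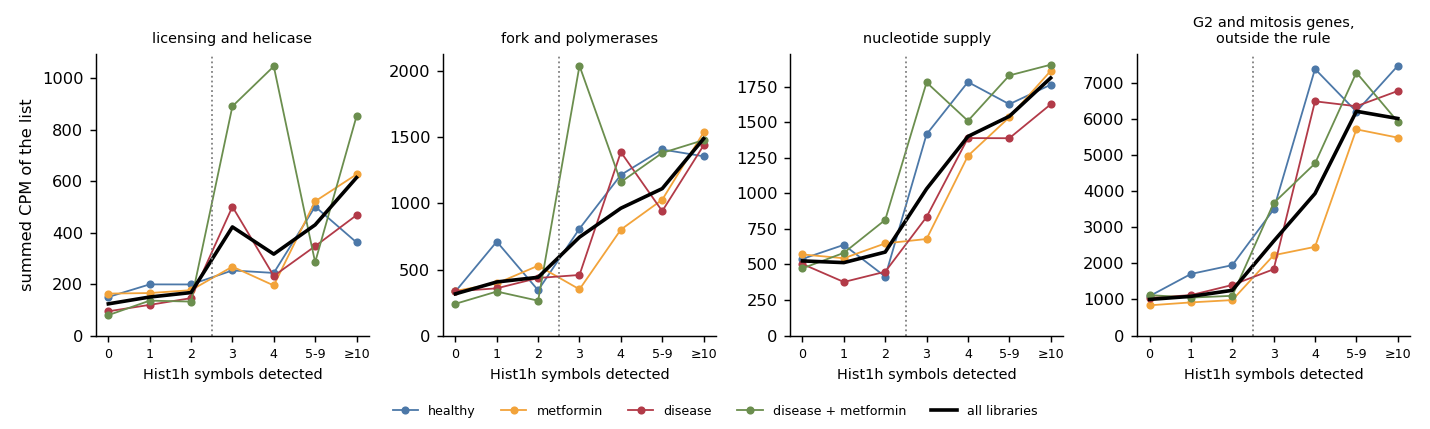
Summed CPM of gene lists outside the rule (vertical axis) by the number of Hist1h symbols per barcode (horizontal axis), without barcodes rich in gland, contractile or haemoglobin RNA. Coloured lines are libraries, the black line is all libraries, and the dotted line marks the rule's limit of 3. The black line for licensing stands at 123 CPM at 0 symbols, 422 at 3, 316 at 4 and 613 at 10 or more.

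Members were compared with non-cycling barcodes over the 4 libraries, each of which gave 1 sum of each class. The test was edgeR's quasi-likelihood test with library as a block and Benjamini-Hochberg adjustment, and a gene was called at an adjusted p under 0.05. Of 4489 genes tested, 8.67% were called, 5.86% higher and 2.81% lower in members, and the median log2 difference of all was -0.10. The fit averages over libraries of different conditions, and p-values measure the spread between these libraries. A gene could enter the test through the members alone, so counts within a list are descriptions. Expression of the DNA replication machinery, other histones and mitotic genes was higher in members, whereas wound-type keratins and cornified envelope genes were lower.

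Among licensing and helicase genes, 5 of 20 had enough UMIs and 3 were higher in members, with a median log2 difference of 1.43. Mcm5, a subunit of the replicative helicase, was at 63.8, 40.9, 39.3 and 55.6 CPM in members and 15.7, 14.3, 5.81 and 3.29 CPM in non-cycling barcodes. The lowest member value was above the highest non-cycling value, a separation seen in 8.75% of all genes tested. The log2 difference was 2.23 ± 0.43 (SE, n = 4 libraries; edgeR adjusted p = 0.0024). Mcm7 of the same complex differed by 1.90 ± 0.36 (edgeR adjusted p = 0.0021), and Gins2, of the GINS complex that joins the helicase to the fork, by 1.43 ± 0.38 (edgeR adjusted p = 0.022). DESeq2 did not call Gins2.

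At the fork, 13 of 28 genes were tested and 10 were higher, with a median of 1.66. Pcna, the clamp that holds polymerases on DNA, was at 255, 118, 118 and 167 CPM in members and 52.4, 46.8, 34.9 and 35.1 CPM in non-cycling barcodes. The healthy library was the highest and the groups did not overlap. The log2 difference was 1.87 ± 0.24 (edgeR adjusted p = 3.1e-05). Lig1, which joins Okazaki fragments, differed by 2.39 ± 0.35, and Prim1, a primase subunit that starts them, by 1.94 ± 0.39. The clamp loader subunits Rfc2, Rfc3, Rfc4 and Rfc5 were among the 10.

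Nucleotide supply had 7 of 9 tested genes higher, of 14 listed, with a median of 1.95. Tyms, thymidylate synthase, was at 266, 193, 224 and 246 CPM in members and 29.7, 36.5, 24.2 and 26.3 CPM in non-cycling barcodes. All 4 values of the members lay far above every non-cycling value. The log2 difference was 2.95 ± 0.22 (edgeR adjusted p = 2.7e-08). Rrm2, the small subunit of ribonucleotide reductase, differed by 3.22 ± 0.44, the large subunit Rrm1 by 1.88 ± 0.37, Tk1 by 2.11 ± 0.33 and the dUTP hydrolase Dut by 1.94 ± 0.22.

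Histones outside the Hist1h cluster were higher too, with 8 of 11 tested genes called, of 21 listed. Hist2h2ac, a replication-dependent H2A gene at chr3:96220361-96220880 (minus strand), was at 394, 391, 640 and 572 CPM in members and 24.5, 28.5, 15.5 and 13.2 CPM in non-cycling barcodes. The groups did not overlap, and the difference was 4.58 ± 0.25 (edgeR adjusted p = 2.8e-10). The other Hist2 genes Hist2h2aa1 (4.31 ± 0.43) and Hist2h2bb (4.29 ± 0.31) were close to it. Variants differed less: H2afx, the variant phosphorylated at DNA breaks, by 3.10 ± 0.24 and H2afz, the H2A.Z variant, by 2.12 ± 0.16. Of histone chaperones, Nasp differed by 1.80 ± 0.21 and Asf1b by 2.93 ± 0.46, and 3 of 9 tested genes of that list were called.

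Among genes with the largest differences outside these lists, Pclaf, a protein that binds PCNA, stood out in level. It was at 745, 404, 640 and 739 CPM in members and 73.4, 41.6, 23.3 and 57.0 CPM in non-cycling barcodes, with no overlap, and it differed by 3.77 ± 0.20 (edgeR adjusted p = 2.7e-10). Esco2, which acetylates cohesin during replication, differed by 4.45 ± 0.44 (edgeR adjusted p = 8.3e-07). The Max partner Mxd3 (4.48 ± 0.59) and the centromere protein Cenpu (4.18 ± 0.59) had folds as large on levels at or under 55.6 CPM. Of G1/S regulators, Ccne2 (cyclin E2) differed by 3.20 ± 0.47, E2f1 by 2.53 ± 0.52 and Cdk4 by 0.83 ± 0.19, 3 of 9 tested. With the rich barcodes left out, 5 of this list were tested and 1 of them, Cdk4, was higher, where 8.36% of all genes were higher.

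Mitotic genes outside the rule were not absent from members. Of 51 listed, 24 were tested and 22 were higher than in non-cycling barcodes, with a median log2 difference of 2.27. Birc5 (survivin) was at 149, 139, 180 and 246 CPM in members against 14.0, 21.7, 20.3 and 17.5 CPM, a difference of 3.20 ± 0.26 (edgeR adjusted p = 9.0e-08). Tuba1b and Stmn1, a tubulin and a tubulin-binding protein, differed by 2.62 ± 0.16 and 2.49 ± 0.18. Aurkb (3.94 ± 0.44), Ska1 (3.77 ± 0.42), Pbk (3.71 ± 0.38) and Sgo1 (3.62 ± 0.57), which act at spindle and centromere, were among the largest. Mki67 stood at 42.5, 22.7, 44.9 and 39.7 CPM against 6.99, 13.7, 13.6 and 17.5 CPM and did not pass (edgeR adjusted p = 0.051). The summed list stood at 5658, 3645, 4714 and 5035 CPM in members, between the non-cycling level of 1005 to 1281 CPM and the mitotic level of 8026 to 10624 CPM. Nucleolar genes moved less, with 4 of 16 tested higher, among them Ran by 1.36 ± 0.15.

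Wound-type and cornified envelope genes were lower in members. Of 13 listed, 7 were tested and 6 were lower, and the median was -3.01. Krt16, a keratin induced by wounding, was at 53.2, 70.4, 67.3 and 39.7 CPM in members and 666, 531, 500 and 323 CPM in non-cycling barcodes. The groups did not overlap, as for 7.51% of all genes that were lower, and the difference was -3.01 ± 0.20 (edgeR adjusted p = 3.9e-09). Krt6b was at 0, 47.7, 0 and 0 CPM against 902, 210, 451 and 135 CPM (-3.82 ± 0.48), and Krt6a at 670, 691, 842 and 731 CPM against 2049, 1402, 1270 and 1107 CPM (-0.90 ± 0.17). Sprr2d, a cornified envelope precursor, had 0 UMIs in the members of all libraries and 274, 93.0, 342 and 135 CPM in non-cycling barcodes. Set against 3 UMIs over all members (3.58 CPM), it was at least 52.1-fold lower. Krt17 was the tested gene of the list that was not called, at 755.2, 870, 2491.5 and 961 CPM against 381, 1451, 1190 and 1567 CPM, and 1 barcode held 50.5% of its UMIs in the disease members.

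Large differences in the same direction were also found outside this list. BC037156 was at 21.3, 95.4, 72.9 and 7.94 CPM in members and 6687, 2946, 6998 and 997 CPM in non-cycling barcodes, a difference of -6.11 ± 0.33 (edgeR adjusted p = 2.7e-10). Odam, made by junctional epithelium at the tooth, was found as 1 library's 2.27 CPM among members, with 0 in the other 3, against 222, 71.9, 463 and 105 CPM (-7.0 ± 0.52). Slpi, a secreted protease inhibitor, differed by -2.78 ± 0.44, the envelope gene Sprr1a by -5.51 ± 0.47 and the transcription factor Runx2 by -2.60 ± 0.48. Clic3, Tmprss11d, Ltf and Pdzd2 were lower by log2 differences of -3.29, -2.42, -2.40 and -2.16.

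Adhesion and differentiation genes were little different or lower. Of 16 tested genes of basal adhesion and identity, 3 were lower when tested with edgeR: Dst by -0.84 ± 0.21, Trp63 by -0.77 ± 0.21 and Cd44 by -0.84 ± 0.25. Of 17 tested genes of early differentiation and desmosomes, 4 were lower: Dsp (-0.90 ± 0.18), Ly6d (-1.47 ± 0.33), Pkp1 (-1.0 ± 0.25) and Dsg1a (-1.73 ± 0.45). Without the barcodes rich in other RNA, these counts were 6 of 14 and 12 of 18, where 5.99% of all genes were lower. DESeq2 with all barcodes called 0 of the first list and 1 of the second. Basal markers not used by the rule stayed present in members, with Col17a1 at 95.7, 111, 236 and 127 CPM and Krt15 at 702, 779, 258 and 659 CPM. The disease library was the highest for Col17a1 and the lowest for Krt15.

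Of 12 tested mitochondrially encoded genes, 8 were lower in members, with a median of -0.73. mt-Co2 was at 585, 1520, 1302 and 858 CPM against 2558, 1679, 1729 and 1895 CPM, a difference of -0.86 ± 0.23 (edgeR adjusted p = 0.021). The share of barcodes with no mitochondrial UMI was 42.5% in members and 42.5% in non-cycling barcodes, but it differed between libraries as given above. Its part in this result was not tested, and DESeq2 called 0 of the 12. Of 15 tested immediate-early genes, edgeR called 0, with 7 lower at an unadjusted p under 0.05, and DESeq2 called 0. Of 4 tested genes of the integrated stress response and AMPK-linked list, edgeR and DESeq2 called 0, with 0 at an unadjusted p under 0.05.

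**Figure D4:**
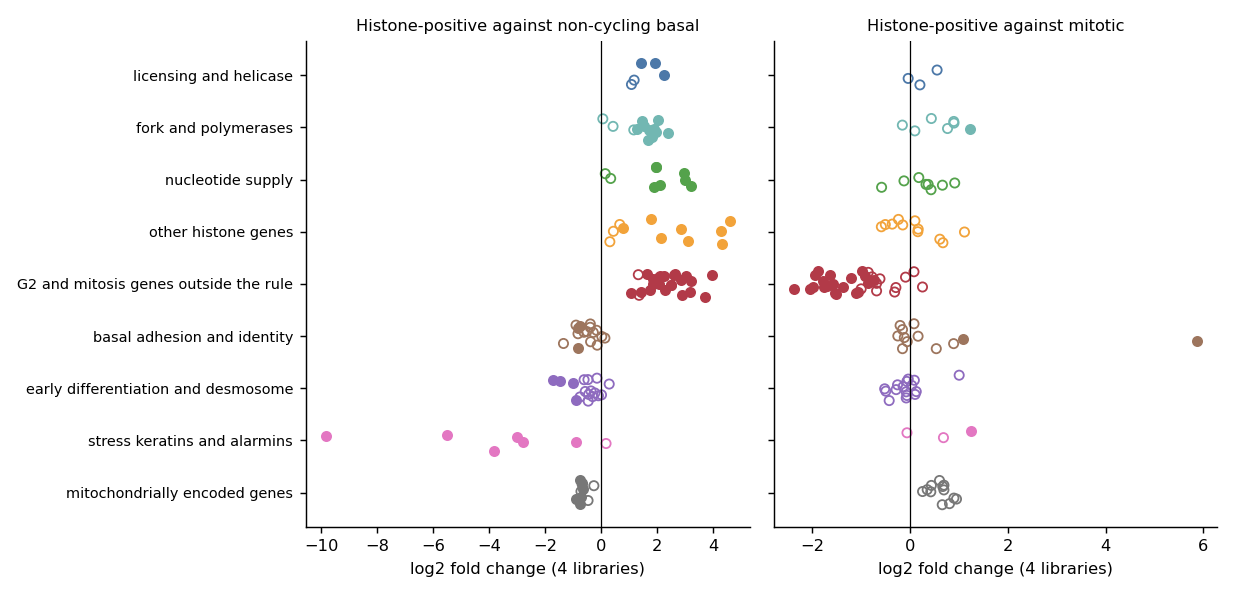
Log2 difference of listed genes in members against non-cycling barcodes and against mitotic barcodes, one point per gene, with filled points at an edgeR adjusted p under 0.05. Replication and nucleotide genes lie to the right of 0 against non-cycling barcodes. Against mitotic barcodes their medians are closer to 0, at 0.20 for licensing, 0.77 for fork and 0.35 for nucleotide genes. G2 and mitosis genes change side. The leftmost point is Sprr2d, whose fitted value depends on the prior count because members held 0 UMIs.

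The nearest cells were the mitotic barcodes. They had a median of 2595 UMIs, against 1381.5 in members and 1137 in non-cycling barcodes. The part of depth in either comparison was not tested. The same test over the 4 libraries called 6.86% of 1968 genes, 4.17% higher and 2.69% lower in members, with a median of 0.03. The members and libraries are those of the comparison above, so the 2 comparisons are not independent. Members and mitotic barcodes were split on the mitotic genes of the rule, so lower levels of genes expressed together with these partly follow from it. G2 and mitosis genes outside the rule were lower, with 20 of 31 tested called and a median of -1.07. Without the rich barcodes it was 17 of 26, where 3.55% of all genes were lower. Genes of DNA copying differed less than against non-cycling barcodes, and few of them passed the test. Their median log2 difference was 0.20 for licensing, 0.77 for fork and 0.35 for nucleotide genes.

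Cenpe, a kinesin of the kinetochore, was at 21.3, 11.4, 11.2 and 15.9 CPM in members and 68.0, 65.0, 145 and 48.3 CPM in mitotic barcodes. The groups did not overlap, as for 8.84% of all genes that were lower, and the difference was -2.38 ± 0.41 (edgeR adjusted p = 0.0032). Ccnb1, cyclin B1, differed by -2.05 ± 0.32 and Pttg1, securin, by -1.98 ± 0.18 (edgeR adjusted p = 2.2e-05). Prc1, Ckap2l, Anln, Dlgap5, Kif23 and Ckap2, which act on spindle and cleavage furrow, had log2 differences of -1.94 (Anln) to -1.64 (Prc1), and Mki67 one of -1.58 ± 0.33. DESeq2 did not call Anln, Dlgap5, Kif23 and Mki67. Arl6ip1 was at 404, 236, 398 and 373 CPM against 961, 1087, 1460 and 1264 CPM (-1.66 ± 0.14), again without overlap. The differences for Top2a (-1.11 ± 0.23), Cdk1 (-0.93 ± 0.16) and Hmgb2 (-0.62 ± 0.12) were smaller but passed.

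In the other direction, Pcna was at 255, 118, 118 and 167 CPM in members and 34.0, 83.5, 73.8 and 56.3 CPM in mitotic barcodes. Every library was higher in members and the groups did not overlap (2.79% of all genes). The difference was 1.22 ± 0.30 (edgeR adjusted p = 0.027). The histone chaperone Nasp, at 223, 136, 196 and 159 CPM against 111, 116, 105 and 80.5 CPM, differed by 0.82 ± 0.19 (edgeR adjusted p = 0.022). DESeq2 called Pcna and not Nasp. Of 7 fork genes tested, edgeR and DESeq2 each called 1, with 4 at an unadjusted p under 0.05, all of them higher. Of 3 licensing genes tested, edgeR and DESeq2 called 0, with 0 at an unadjusted p under 0.05. Of 8 nucleotide genes they called 0 as well, with 4 at an unadjusted p under 0.05, of which 3 were higher.

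Removing the barcodes rich in gland, contractile or haemoglobin RNA from both classes changed this. Of 9 nucleotide supply genes then tested, 5 were higher in members, with a median of 0.53, where 5.74% of all genes were higher. Dut went from 0.66 (edgeR adjusted p = 0.062) to 0.92 (edgeR adjusted p = 0.0015), Rrm2 from 0.91 (edgeR adjusted p = 0.13) to 1.15 (edgeR adjusted p = 0.019) and Tyms from 0.43 (edgeR adjusted p = 0.17) to 0.69 (edgeR adjusted p = 0.0053). Pcna was then at 1.45 (edgeR adjusted p = 0.00075). Hist2h2ac and Hist2h2bb, not called with all barcodes (0.67 and 0.61), differed by 0.90 and 0.85 (edgeR adjusted p = 0.00087 and 0.0054). This removal was chosen after the data were seen.

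The same removal took away the largest increases over mitotic barcodes. With all barcodes, the 6 contractile genes were higher, among them Tagln (7.71 ± 0.32), an actin-binding protein of smooth muscle, and Acta2, smooth muscle actin, at 1649, 777, 1650 and 1001 CPM against 0, 6.19, 28.4 and 4.02 CPM. At least 5 contractile UMIs were found in 8 members and in no mitotic barcode. Without the rich barcodes, no contractile gene had enough UMIs to be tested, and the list stood at 23.2, 17.4, 21.1 and 0 CPM in members. Of 8 tested gland genes, 5 were higher with all barcodes and 2 of 5 without, with Muc5b at 1.26 ± 0.23 and then 0.50. Fos (2.46 ± 0.44) and Jun (1.84 ± 0.48) were higher with all barcodes and not testable without. Krt17 was higher in both fits, at 1.25 ± 0.28 and then 1.29 (edgeR adjusted p = 0.00034). As given above, a single barcode held a large part of its UMIs in the disease members.

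The share of members among barcodes inside the keratin limits was 12.1% (9.32 to 15.4, exact 95% interval) of 479, 14.6% (12.7 to 16.7) of 1260, 12.3% (10.1 to 14.8) of 802 and 9.32% (7.17 to 11.9) of 633. The disease plus metformin library had the lowest share and the metformin library the highest. The ratio of these extremes was -0.65 on the log2 scale (-1.10 to -0.22), and that of disease plus metformin to disease -0.41 (-0.90 to 0.07). The ratio of metformin to healthy was 0.27 (-0.16 to 0.72), and that of disease to healthy 0.03 (-0.45 to 0.52). Only the first interval left out 0, and it covers counting error in 1 library each.

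Depth sets how many Hist1h symbols a barcode can show, and the median UMIs inside the keratin limits were 1025, 1458.5, 1237 and 1367. With every barcode thinned to 1000 UMIs and shallower ones left out, the shares were 11.4%, 9.0%, 9.88% and 8.75%, and the ratio of disease plus metformin to metformin was -0.04 (-0.66 to 0.55). Only the Hist1h symbols were counted after thinning. The limits on keratins and mitotic genes used all UMIs, so these shares were not fully matched for depth. Among barcodes with both mitochondrial and Malat1 UMIs, the shares were 3.39%, 15.4%, 10.4% and 5.91%, with 4 members in the healthy library. The order of the libraries differed under each of these settings. As a background, 2.5% of 920 barcodes with over 10% gland RNA and under 5 UMIs of Krt5 and Krt14, with a median of 1005.5 UMIs, had at least 3 Hist1h symbols, against 19.2% of all barcodes inside the keratin limits. Other keratinocytes were closer to the latter. At least 3 symbols were found in 19.7% of 244 barcodes with at least 10 UMIs of Krt4 and Krt13 (median 2887.5 UMIs). With at least 5 UMIs of Krt1, Krt10 and Krt76 it was 11.8% of 321 barcodes (median 2491 UMIs). Having 3 symbols was thus not particular to barcodes inside the keratin limits.

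**Figure D5:**
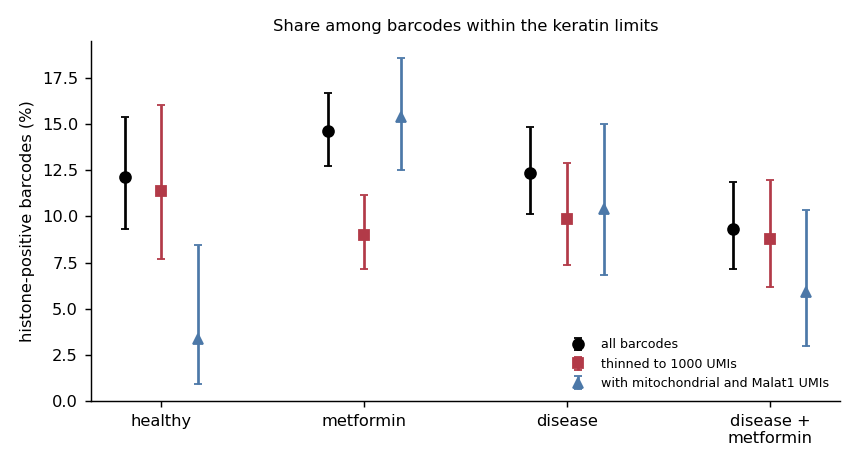
Members as a percent of barcodes inside the keratin limits in each library, for all barcodes, with Hist1h symbols counted after thinning to 1000 UMIs, and for barcodes with mitochondrial and Malat1 UMIs. Bars are exact 95% intervals for counting error. The metformin library is at 14.6%, 9.0% and 15.4% under the 3 settings.

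Between libraries, the summed level of Hist1h RNA within members was higher in the 2 disease libraries. Members were chosen on Hist1h detection, so these levels only describe values that the rule used. At least 5 Hist1h symbols were found in 30 of 58, 100 of 184, 77 of 99 and 39 of 59 members. The part of this in the levels was not tested. The log2 ratio of the summed CPM was 0.42 (0.27 to 0.56) for disease to healthy and 0.50 (0.39 to 0.60) for disease plus metformin to metformin. For metformin to healthy it was -0.08 (-0.21 to 0.06) and for disease plus metformin to disease 0.00 (-0.12 to 0.12). Without barcodes rich in other RNA the sums were 6256, 7350, 9572 and 9279 CPM. Both disease libraries lay above both others either way. With mitochondrial and Malat1 UMIs required, the ratio of disease plus metformin to metformin was -0.10.

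This difference was not shared evenly by the histone genes, whose detection the rule used. For disease to healthy, Hist1h3c had a log2 ratio of 1.38 (0.68 to 2.16), Hist1h2ae 1.10 (0.58 to 1.65) and Hist1h1b 0.03 (-0.26 to 0.33). For disease plus metformin to metformin the values were 1.00 (0.55 to 1.44), 0.75 (0.43 to 1.06) and 0.29 (0.05 to 0.54). Hist1h2ap differed mainly between disease plus metformin and disease, by 1.37 (0.69 to 2.08). Of 17 Hist1h genes with at least 20 UMIs over the disease and healthy libraries, 4 were at least 2-fold higher in disease and none lower, where 13.1% of 1411 genes were higher and 2.34% lower (15.5% either way). For disease plus metformin to metformin, 1 of 25 was at least 2-fold higher and 2 were lower. Of all 2430 genes measured in this pair, 4.36% were higher and 11.2% lower. Among barcodes with mitochondrial and Malat1 UMIs, with 4 members in the healthy library, the ratio of Hist1h3c in disease to healthy was -0.57.

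Replication genes followed the histones in 1 pair of libraries and not in another. The licensing list stood at 351, 341, 359 and 604 CPM, the fork list at 1181, 854, 937 and 1326 CPM and nucleotide supply at 1532, 1134, 1139 and 1533 CPM. For fork and nucleotide genes the healthy and the disease plus metformin members were high and the other 2 low. Without the rich barcodes, licensing was at 371, 479, 415 and 738 CPM and nucleotide supply at 1637, 1499, 1385 and 1830 CPM, so the disease plus metformin members stayed the highest. Where the summed Hist1h ratio was 0.50, for disease plus metformin to metformin, the log2 ratio was 0.82 (0.41 to 1.23) for licensing, 0.63 (0.36 to 0.90) for fork and 0.43 (0.19 to 0.68) for nucleotide genes. For disease to healthy, where it was 0.42, these lists were at 0.03 (-0.59 to 0.69), -0.33 (-0.69 to 0.03) and -0.43 (-0.74 to -0.11). The log2 ratio of disease plus metformin to disease was 0.75 (0.25 to 1.25) for licensing and 0.43 (0.14 to 0.72) for nucleotide supply. Dut, at 266, 186, 157 and 357 CPM, had a ratio of 1.19 (0.47 to 1.92) in this last pair.

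Outside the histones, the genes furthest apart between libraries were named by the bound of the interval nearest 0. For disease to healthy, Pde4d, a cyclic AMP phosphodiesterase, was at 1167 CPM in disease and 85.1 CPM in healthy members, a log2 ratio of 3.78 (2.77 to 5.01), and it was found in 51 of the 99 disease members and 7 of the 58 healthy ones. Arpc2, of the actin-branching Arp2/3 complex, was higher by 2.03 (0.96 to 3.31) and the splicing factor Mbnl2 by 2.62 (0.96 to 4.97). Dcpp1 (-5.83) and Dcpp2 (-5.45), secreted gland proteins, were lower, as was Krt15 at -1.44 (-2.02 to -0.88). For disease plus metformin to disease, 3.06% of 1536 genes were at least 2-fold higher and 12.1% lower. The secretory genes Tff2 (2.54), Wfdc2 (2.22) and Gp2 (2.23) led the higher ones, and Emb (-2.41), Krt13 (-1.99) and Trappc2l (-2.89) the lower ones. Krt13 is a gene of the rule.

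For metformin to healthy, where 12.9% of 2299 genes were higher and 5.96% lower, the gland genes Dcpp1, Dcpp2 and Dcpp3 led with 5.08, 5.25 and 5.43. Without the rich barcodes their log2 ratios were -1.34, -1.98 and -1.16, so their direction turned. Tubb5 (-1.0), Ly6a (-1.23) and Timm50 (-1.62) were lower. For disease plus metformin to metformin, where 4.36% of 2430 genes were higher and 11.2% lower, Glo1 (1.87), Ube2e1 (2.51) and the rule gene Ube2c (1.41) led. Dcpp2 (-3.53), Dcpp3 (-3.70) and Wfdc18 (-3.75) were the lowest, and Wfdc18 was at 0.40 without the rich barcodes. The list of the integrated stress response and AMPK-linked genes stood at 255, 259, 213 and 230 CPM, with intervals of all 4 ratios that included 0.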

How the data were processed

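Droplet-based single-cell RNA was sequenced from 4 gingival libraries. Per the submitters' processing notes, bcl2fastq and Cell Ranger 7.0.1 were used with the mm10 build, and the deposited matrices hold raw UMI counts per gene and called barcode, with 32285 genes under 32245 symbols and at least 500 UMIs per barcode. UMI counts were summed per symbol. Barcodes were filtered and classed by the rule given at the start, and doublets were not called. The members and the gene and marker lists were chosen with earlier results of these data known.

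UMIs of a class were summed per library. Levels are CPM of these sums with exact Poisson intervals, shares carry exact Clopper-Pearson 95% intervals, and ratios carry conditional exact binomial intervals. A level of 0 was set to 3 UMIs for a bound. Between libraries, a gene needed 20 UMIs over both and counted as different at 2-fold. Classes were compared with edgeR 4.0.16 (quasi-likelihood test, TMM, filterByExpr) in R 4.3.3 with library as a block, because both classes of a pair came from the same library; deviations of same-library sums correlated at 0.059 to 0.35 against non-cycling and 0.058 to 0.50 against mitotic barcodes. P-values were adjusted over all genes tested. DESeq2 1.42.0 was an alternative. On simulated counts for the non-cycling comparison (4689 genes) 85% of 4-fold and 53% of 2-fold changes were recovered, and for the mitotic comparison (1943 genes) 87% and 74%. The simulated libraries shared the same mean per gene and a fixed spread, and only genes with many UMIs were changed. These rates therefore do not give the power for the real libraries, which differed, or for genes with few UMIs. Tables were made in Python 3.11.15 with numpy 2.4.6, scipy 1.17.1 and pandas 2.3.3.

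Genes were named by rule: in class comparisons the 12 largest folds per direction that passed and had the same direction in every library, up to 5 genes per list by smallest p, and list members named for their role; between libraries the 3 highest and 3 lowest by the interval bound nearest 0. Mitochondrial, ribosomal, haemoglobin, immunoglobulin, sex-linked and predicted genes were left out of the folds. Stem-loops were searched in GENCODE vM21 transcripts and motifs in RefSeq promoters of GRCm38.p6. Some genes that met this naming rule are not reported here.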

Additional observations from a re-analysis of the deposited data

Results flagged for a closer look

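For 15 of 174 combinations of a named gene and a class comparison, 1 library's log2 difference lay far from the other 3 by Dixon's criterion for 4 values at the 95% level, which chance alone meets in about 1 of 20 groups.

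Against non-cycling barcodes, the metformin library was low for the primase subunit Prim1 (1.05, others 2.34 to 2.6), for thymidylate synthase Tyms (2.4, others 3.16 to 3.23) and for the histone variant H2afv (1.28, others 1.9 to 1.95). The clamp loader gene Rfc4 was low in the disease library (0.82, others 1.86 to 1.99), and the chromatin protein gene Hmgb2 was high in the healthy one (3.02, others 2.1 to 2.15). The immediate-early gene Ier3 was low in the disease plus metformin library (-2.1, others -0.79 to -0.63).

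Against mitotic barcodes, the metformin library stood apart for Tyms (-0.18, others 0.55 to 0.58), Dctpp1 (-0.19, others 0.32 to 0.4), Nasp (0.23, others 0.9 to 1.01), H2afv (-1.01, others -0.36 to -0.24) and the mucin gene Muc5b (2.22, others 0.67 to 0.74). Of the members of that library, 59 of 184 had over 5% gland RNA, and the part of this RNA in these values was not tested. The disease plus metformin library stood apart for Dut (1.22, others 0.2 to 0.31) and Jun (-0.37, others 2.32 to 2.72). The healthy library stood apart for the mitotic gene Cks2 (-0.92, others -1.45 to -1.37) and for Odc1, the first enzyme of polyamine synthesis (-1.0, others 0.68 to 0.84).

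Some effects had opposite signs in the 2 arms of the design, each from 1 library per group, and these differences were not tested. The log2 ratio of the share of members with and without metformin was -0.41 in diseased and 0.27 in healthy gingiva, a difference of -0.68. The same share gave a disease effect of -0.65 with and 0.03 without metformin, again a difference of -0.68 because the 4 libraries are the same. For Hist1h3c the metformin effect was -0.04 in disease and 0.35 in healthy gingiva, which differ by -0.39. For Hist1h2ap the disease effect was 0.96 with and -0.31 without metformin, which differ by 1.28.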

How the results depend on the processing

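Counts of genes called moved with most settings, while called genes rarely changed sign. Of the values of named genes under an alternative, 1079 against non-cycling and 860 against mitotic barcodes kept their side of the threshold. Another 138 and 74 lost their call, 57 and 38 gained one, and 4 and 3 changed sign while called in either fit. A change of sign in a gene called in neither fit counted as kept. Genes not tested under an alternative were left out. The causes were not tested.

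Against non-cycling barcodes, 263 genes were higher and 126 lower. These counts were 493 and 702 with at least 5 Hist1h symbols, 479 and 336 without counting Hist1h1c and Hist1h2bc, 92 and 67 after thinning to 1000 UMIs, 74 and 27 among barcodes of 2000 UMIs or more, and 30 and 13 with mitochondrial and Malat1 UMIs, a fit over 3 libraries because the healthy one had 4 such members. The lower count was 51 with DESeq2, 222 without a filter on low counts and 52 with no replicate block. Leaving out 1 library gave 178 to 221 higher and 42 to 99 lower genes, with 42 lower without the healthy and 78 without the disease plus metformin library. Without the rich barcodes, a removal added after the data were seen, the counts were 254 and 182. The thinned fits, here and against mitotic barcodes, kept the classes set at full depth.

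Against mitotic barcodes, 82 genes were higher and 53 lower. These were 48 and 32 with DESeq2, 177 and 84 without a filter, 36 and 23 with mitochondrial and Malat1 UMIs, 33 and 26 without Hist1h1c and Hist1h2bc, and 8 and 14 after thinning. With no replicate block 51 were higher. Leaving out 1 library gave 54 to 88 higher and 28 to 56 lower, with 54 and 28 without the disease library.

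Among genes called in either fit, signs changed for Hbb-bt (-7.27) and Hba-a2 (-4.30) against non-cycling barcodes with mitochondrial and Malat1 UMIs. Cnn1 was at -9.76 with at least 5 symbols and -3.77 without Hist1h1c and Hist1h2bc. Against mitotic barcodes Itgb1 (-1.48), mt-Nd1 (-1.26) and mt-Nd4 (-1.05) turned negative with at least 5 symbols.

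Shares in the order used above were 18.4%, 23.3%, 16.6% and 14.2% with at least 2 symbols, 6.26%, 7.94%, 9.60% and 6.16% with at least 5, and 17.7%, 21.7%, 19.6% and 14.8% with no limit on mitotic genes. With mitochondrial and Malat1 UMIs the healthy share was 3.39% and that of disease plus metformin 5.91%, and after thinning that of metformin was 9.0% and that of disease 9.88%.

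Between libraries, the summed Hist1h ratio of disease to healthy was 0.64 with every barcode weighted equally, 0.57 without Hist1h1c and Hist1h2bc, 0.86 with mitochondrial and Malat1 UMIs and 0.61 without the rich barcodes. For disease plus metformin to disease it was -0.31, -0.17 and -0.30 under the first 3. For disease plus metformin to metformin it was 0.27 with equal weights, -0.10 with mitochondrial and Malat1 UMIs and 0.34 without the rich barcodes, and for metformin to healthy 0.66 and 0.23 under the last 2. Hist1h3c in disease to healthy was -0.57 with mitochondrial and Malat1 UMIs. When barcodes rich in gland, contractile or haemoglobin RNA were left out, metformin to healthy was -1.98 for Dcpp2, -1.34 for Dcpp1 and -1.16 for Dcpp3, and disease plus metformin to metformin was 0.40 for Wfdc18.

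Counts of genes at least 2-fold apart with a minimum of 10 UMIs were 595 higher and 128 lower for disease to healthy, 161 and 571 for disease plus metformin to disease, 653 and 418 for metformin to healthy, and 344 and 678 for disease plus metformin to metformin. With equal weights 63 were lower for disease to healthy, 89 higher for disease plus metformin to disease and 183 higher for disease plus metformin to metformin, and without each gene's top barcode 429 were lower in the last. Without Hist1h1c and Hist1h2bc the counts were 88 higher for disease to healthy, 82 lower for disease plus metformin to disease and 69 higher for disease plus metformin to metformin. With mitochondrial and Malat1 UMIs they were 65 lower, 117 lower, 117 higher and 450 lower, and 225 higher for disease to healthy, disease plus metformin to disease, metformin to healthy, and disease plus metformin to metformin. They were 104 higher, 89 lower, 137 higher and 64 lower, and 60 higher and 113 lower in the same order once the rich barcodes were left out. Depth limits single genes, since the healthy members hold 94020 UMIs in all.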
